A study of Mus musculus with 24 samples.

Results

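The integrated stress response (ISR) genes described here are Atf4 and 9 genes that act with it or under it: Atf5, Ddit3, Trib3, Chac1, Nupr1, Pck2, Ppp1r15a, Ddit4 and Sesn2. They were taken by symbol from a deposited table of 54242 symbols, and all 10 were found. Every one also reached the level required for testing, an average of 0.5 or more on the log2(TPM + 1) scale across 24 libraries, as did 16447 symbols in all. The genes were chosen by their known roles and with the log2 differences between siRNAs at day 0 without rescue already known, so the values of that comparison, and of any other that uses the same 6 libraries, are given as a description. RNA-seq was performed on CGR8 cells, a mouse embryonic stem cell (ESC) line, in 8 groups of 3 libraries labelled as independent triplicates. Cells received a pool of non-targeting siRNAs (si-CTL) or a pool of siRNAs against Rsl24d1 (si-Rsl24d1), which encodes a factor of large ribosomal subunit maturation. They were kept in serum with LIF (day 0) or treated with 10 nM retinoic acid (RA) for 4 days (day 4). In each of these 4 arms cells were either without doxycycline (no rescue) or with doxycycline, which induces an ectopic Rsl24d1 in a rescue line (with rescue). The labels name an empty vector for every group without doxycycline and an RSL24D1 expression vector for every group with it, so the vector, the doxycycline and the ectopic protein cannot be told apart, although the study's methods describe a doxycycline-inducible line. Day 4 also differs from day 0 by time since transfection and by the medium.

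In the ISR, kinases that sense unfolded protein, amino acid shortage, viral RNA or lack of haem phosphorylate the translation factor eIF2. General translation then falls, while the mRNA of ATF4, a transcription factor of the basic leucine zipper (bZIP) family, is translated better because of short upstream reading frames. ATF4 raises genes of amino acid synthesis and uptake, its own partners and inhibitors, and the phosphatase subunit that ends the response. Cells kept in culture have a basal activity of this pathway, and mRNA levels do not show eIF2 phosphorylation or ATF4 protein.

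The best known binding site of ATF4 is the C/EBP-ATF response element, with the core TGATGNAA. RefSeq promoters on GRCm38.p6, each 300 bases long with 250 before and 50 after the transcription start, were searched for this core on both strands, and for the cAMP response element TGACGTCA, which reads alike on both strands. The core was present in 1304 of 32851 promoters (3.97%) and the second element in 588 (1.79%). All 10 genes had a promoter in the table, 11 promoters in all since Atf5 has 2. The core was found in 4 of the 10 genes, Trib3, Chac1, Nupr1 and Pck2, each time on the strand opposite to the gene, and the second element in Ppp1r15a. These 5 stretches are shown because they are the only matches among the 10 genes. Each runs up to 60 bases to either side of the match, as far as the window and at most 30 bases past the start allow, with the match in capitals.
Trib3, chr2:152344031-152344106, minus strand: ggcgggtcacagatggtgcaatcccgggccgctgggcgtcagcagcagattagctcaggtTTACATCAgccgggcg
Chac1, chr2:119350992-119351116, plus strand: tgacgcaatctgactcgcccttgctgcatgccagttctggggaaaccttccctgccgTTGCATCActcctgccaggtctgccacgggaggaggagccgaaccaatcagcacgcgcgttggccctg
Nupr1, chr7:126625513-126625640, minus strand: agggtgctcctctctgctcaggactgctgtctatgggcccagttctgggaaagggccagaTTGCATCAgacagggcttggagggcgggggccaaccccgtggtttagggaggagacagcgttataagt
Pck2, chr14:55540103-55540230, plus strand: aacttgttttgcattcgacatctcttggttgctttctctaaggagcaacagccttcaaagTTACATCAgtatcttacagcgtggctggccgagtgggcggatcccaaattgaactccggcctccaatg
Ppp1r15a, chr7:45526239-45526340, minus strand: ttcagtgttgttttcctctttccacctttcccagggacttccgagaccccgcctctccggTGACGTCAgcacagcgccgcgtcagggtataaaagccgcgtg
The match begins 193 bases before the start in Chac1, 110 in Nupr1 and 103 in Pck2. In Trib3 it begins at base 15 after the RefSeq start but still before the start of the gene in the gencode vM21 annotation, at base 152344032 of the minus strand. The RefSeq start of Nupr1 lies inside the longer gencode gene. In Ppp1r15a it begins 12 bases before the start. A match describes letters, not binding, and its absence from the windows of Atf4, Atf5, Ddit3, Ddit4 and Sesn2 says nothing about elements elsewhere.

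Levels are given as log2(TPM + 1), as deposited, with TPM a transcript level corrected for length and scaled to 1000000 per library. Such values keep no read numbers, so sequencing depth is unknown and precision rests on 3 libraries per group. The target of the siRNA was checked first. At day 0 without rescue, Rsl24d1 was at 35.7 TPM in si-Rsl24d1 and 141 TPM in si-CTL cells, 25.3% of the control (log2 fold change -1.95, standard error 0.07, adjusted p = 3.2e-14, limma). With rescue it was at 107 against 151 TPM (-0.50, adjusted p = 2.2e-05), where the symbol counts endogenous and ectopic transcripts together. At day 4 without rescue it was at 95.1 TPM after si-Rsl24d1 and 97.9 TPM after si-CTL, with a 95% interval of the log2 difference from -0.19 to 0.11. The day 4 comparisons therefore set cells with an earlier siRNA treatment side by side at a time when Rsl24d1 mRNA was not detectably lower. Pluripotency genes summed to 4629 to 6042 TPM at day 0 and 6167 to 7210 TPM at day 4 over 8 genes. None of them was at 0 in all libraries of either day. The genes of this list went different ways. Dppa5a (2203 to 3230 TPM at day 0, 4367 to 5370 TPM at day 4) and Nanog (134 to 188, 287 to 359) were higher at day 4. Pou5f1 (892 to 1123, 450 to 547), Sox2 (239 to 292, 166 to 196) and Tdgf1 (613 to 687, 190 to 252) were lower. The ranges of Zfp42, Esrrb and Klf4 overlapped between the days. A list of 5 fibroblast genes, mostly collagens and periostin, summed to 21.5 to 47.0 TPM at day 0 and to 104 to 276 TPM at day 4. Thy1 of this list went the other way (4.40 to 6.78 TPM at day 0, 1.22 to 2.51 TPM at day 4). Sums over RA response genes were 3.63 to 8.88 TPM at day 0 and 15.5 to 34.9 TPM at day 4. Ectoderm genes summed to 72.5 to 94.0 and 34.9 to 58.2 TPM. Endoderm genes summed to 1.12 to 2.11 and 3.50 to 11.4 TPM, and mesoderm genes to 9.18 to 17.7 and 2.92 to 3.90 TPM. In bulk libraries, fewer cells of a type and less RNA per cell cannot be told apart.

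In si-CTL cells at day 0 without rescue, Atf4 had the highest level of the 10 genes, 173 ± 4 TPM (SD, n = 3). Ddit4, which encodes an inhibitor of the growth kinase complex mTORC1, followed with 71.5 ± 2.8 TPM, and Sesn2, which encodes a leucine-binding inhibitor of the same complex, with 52.6 ± 3.0 TPM. Ppp1r15a, encoding the phosphatase subunit GADD34 that reverses eIF2 phosphorylation, was at 30.0 ± 5.6 TPM and Trib3, encoding a pseudokinase that restrains ATF4, at 28.7 ± 1.9 TPM, a difference within the spread of the libraries. Chac1, encoding a glutathione-degrading enzyme, was at 24.2 ± 0.2 TPM. Pck2, encoding mitochondrial phosphoenolpyruvate carboxykinase, was at 17.3 ± 0.5 TPM, Ddit3, encoding the bZIP factor CHOP, at 17.1 ± 1.9 TPM and Nupr1, encoding a small chromatin-bound stress protein, at 16.1 ± 1.4 TPM. The order among these 3 is within their spread. Atf5, a bZIP factor whose mRNA is translated under stress like that of Atf4, was lowest with 11.4 ± 1.0 TPM. All 10 symbols are protein-coding genes of gencode vM21 (GRCm38), where Atf4 lies at chr15:80255184-80257541 on the plus strand, Chac1 at chr2:119351229-119354381 on the plus strand and Ddit4 at chr10:59949669-59951834 on the minus strand. Ddit3 stands for 2 overlapping gene models there on chromosome 10, so its values may mix them.

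**Figure D1:**
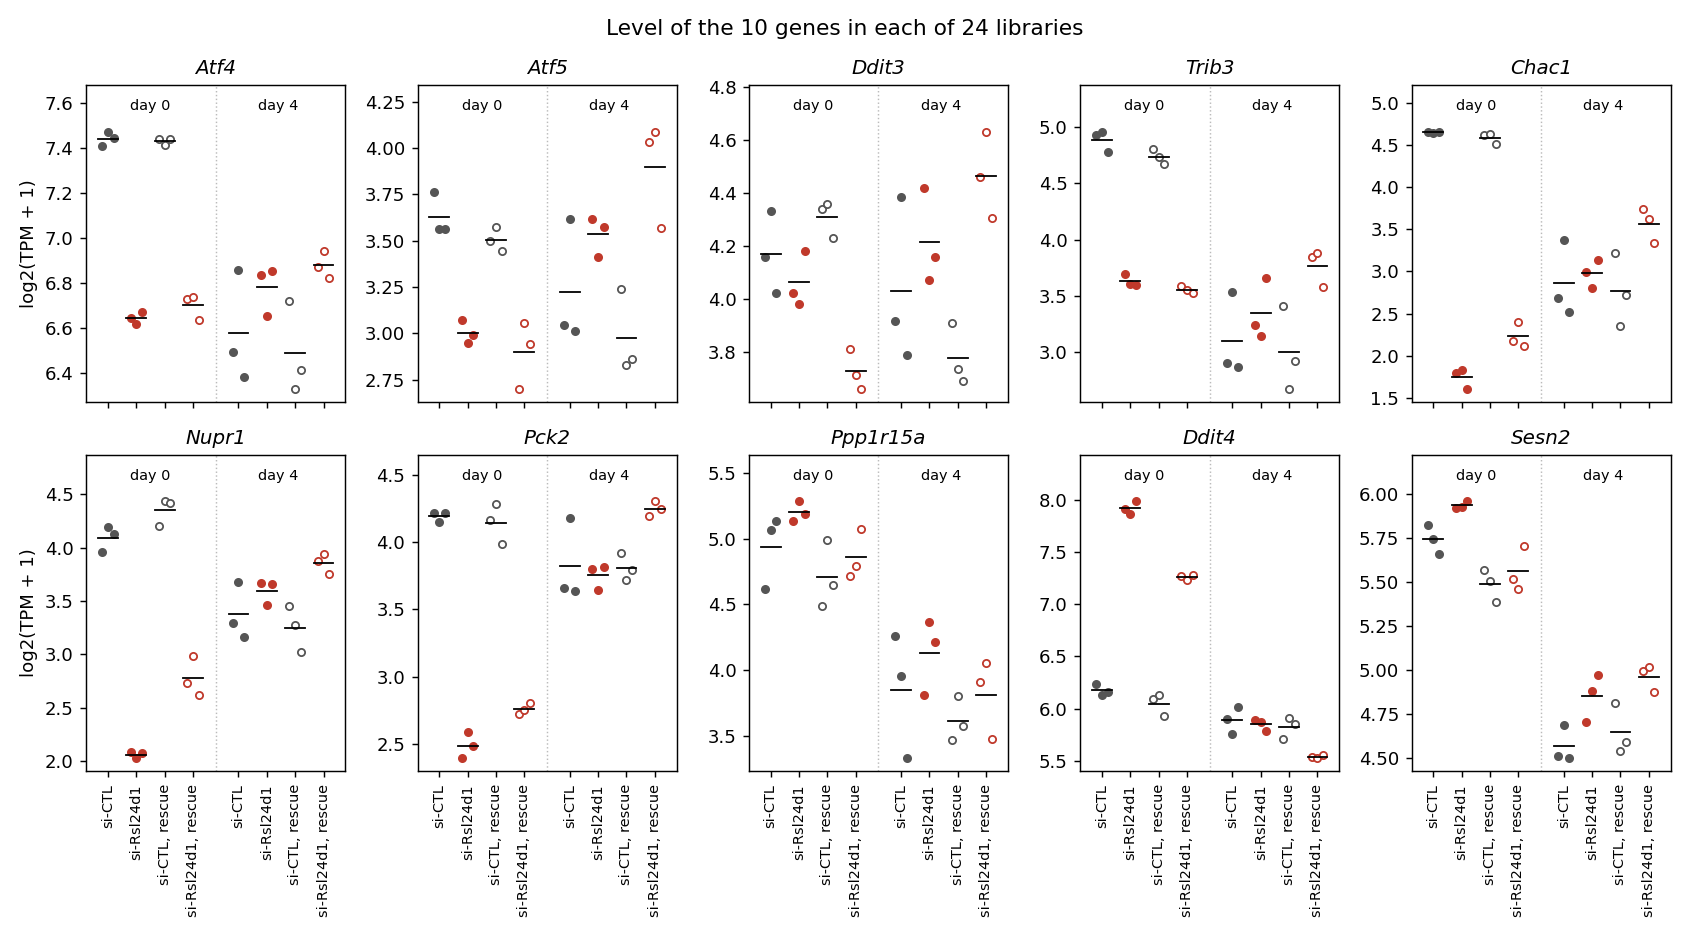
Level of each gene on the log2(TPM + 1) scale (y axes differ and do not start at 0) in the 8 groups, 1 point per library, black lines for means of 3, grey for si-CTL, red for si-Rsl24d1, open points for rescue. At day 0 the red points of Trib3, Chac1, Nupr1 and Pck2 lie below and those of Ddit4 above the grey points in both rescue settings, whereas at day 4 without rescue they overlap the grey points.

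At day 0 without rescue, the comparison by which the genes were known, Chac1, Nupr1, Pck2 and Trib3 were lower and Ddit4 was higher in si-Rsl24d1 cells. Chac1 was at 4.66, 4.64 and 4.66 in the si-CTL libraries and 1.79, 1.83 and 1.60 in the si-Rsl24d1 libraries, 9.75% of the control by TPM and a log2 difference of -2.91. Nupr1 was at 3.96, 4.19 and 4.12 against 2.08, 2.02 and 2.07, a difference of -2.03. Pck2 was at 4.21, 4.15 and 4.21 against 2.40, 2.59 and 2.49, a difference of -1.70. In these 3 genes, and in Trib3, every si-Rsl24d1 library was more than 1 log2 unit under every si-CTL library. In Ddit4 every si-Rsl24d1 library was more than 1 unit above. Trib3 was at 4.93, 4.96 and 4.78 against 3.69, 3.60 and 3.59, a difference of -1.26. Ddit4 went the other way, from 6.24, 6.13 and 6.16 to 7.91, 7.86 and 7.98, a difference of 1.74 or 241 against 71.5 TPM. Separate groups were common in this comparison. All si-Rsl24d1 libraries lay below all si-CTL libraries in 6 of the 10 genes and above them in 3, where 27.3% and 23.8% of tested genes did. Atf4 mRNA itself was at 7.41, 7.47 and 7.44 against 6.64, 6.62 and 6.67, a difference of -0.80, and Atf5 differed by -0.63, both with groups that did not overlap. Both were short of the 1.8-fold limit, 0.848 on the log2 scale, that goes with an adjusted p under 0.01 in the rule for calling a gene differentially expressed. Ddit3 (-0.11), Sesn2 (0.19) and Ppp1r15a (0.26) moved least. Under that rule 1 of the 10 genes was higher and 4 were lower, while 3.4% of all tested genes were higher and 0.772% lower, a count that the choice of genes fixed. Among the lower genes, Trib3 (-1.26) was the nearest inside the fold limit and Atf4 (-0.80) the nearest outside it.

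The same comparison with rescue uses 6 other libraries, for which tests are given. It repeats the siRNA treatment of the same day, and the genes were chosen with earlier results of these data known. There Chac1, Nupr1, Pck2 and Trib3 were downregulated and Ddit4 was upregulated as well. Chac1 was at 4.62, 4.63 and 4.51 in si-CTL and 2.18, 2.40 and 2.12 in si-Rsl24d1 libraries, 3.72 against 23.1 TPM (log2 fold change -2.36, standard error 0.19, adjusted p = 2.0e-08, limma with Benjamini-Hochberg adjustment over all tested genes). Nupr1 was at 4.20, 4.43 and 4.42 against 2.73, 2.98 and 2.62 (-1.57, standard error 0.12, adjusted p = 1.4e-08). Pck2 was at 4.16, 4.28 and 3.98 against 2.72, 2.75 and 2.80 (-1.38, standard error 0.11, adjusted p = 1.1e-08). Again the libraries of the 2 siRNAs were more than 1 log2 unit apart in all 3 genes, and so were those of Trib3 and Ddit4. Trib3 was at 4.81, 4.73 and 4.67 against 3.58, 3.55 and 3.52 (-1.18, standard error 0.17, adjusted p = 3.4e-05). Ddit4 was at 6.10, 6.13 and 5.93 against 7.27, 7.23 and 7.28 (1.21, standard error 0.06, adjusted p = 2.9e-11), 152 against 65.4 TPM. Under the same rule 1 gene of 10 was higher and 4 were lower, against 1.17% of all tested genes higher and 0.188% lower. They are the genes called without rescue, so this count is not independent of the choice of genes.

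The 3 bZIP factors passed the adjusted p but not the fold limit at day 0 with rescue. Atf4 was at 7.44, 7.42 and 7.44 against 6.73, 6.74 and 6.63 (-0.73, standard error 0.10, adjusted p = 1.1e-05), 60.1% of the control by TPM. Atf5 was at 3.50, 3.57 and 3.45 against 2.70, 3.06 and 2.94 (-0.61, adjusted p = 6.5e-03). Ddit3 was at 4.34, 4.36 and 4.23 against 3.81, 3.71 and 3.66 (-0.58, adjusted p = 2.2e-03). All 3 si-Rsl24d1 libraries were thus below all 3 si-CTL libraries in each of these factors. Counting the 4 downregulated genes, 7 of the 10 genes had separate groups with si-Rsl24d1 below, where 15% of all tested genes did. Ppp1r15a, the subunit that ends the response, lay between 4.49 and 4.99 in si-CTL and between 4.72 and 5.07 in si-Rsl24d1 libraries (0.15, 95% interval -0.29 to 0.59). Sesn2 lay between 5.39 and 5.57 against 5.46 and 5.71 (0.07, 95% interval -0.10 to 0.25). The groups of both genes overlapped.

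**Figure D2:**
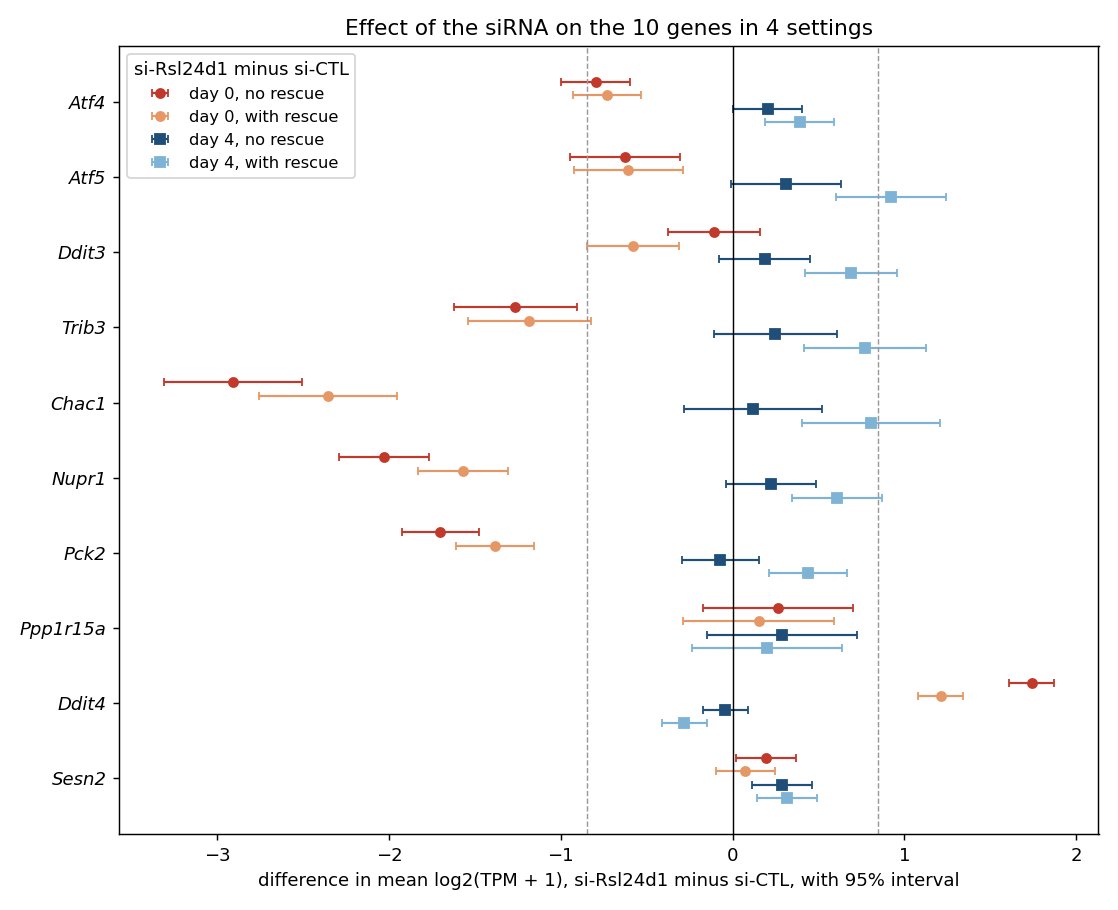
Difference in mean log2(TPM + 1) between si-Rsl24d1 and si-CTL cells for each gene, with 95% intervals from limma, at day 0 (circles) and day 4 (squares) without and with rescue, dashed lines at 1.8-fold. Chac1 runs from -2.91 at day 0 without rescue to 0.80 at day 4 with rescue, Ddit4 from 1.74 to -0.28, and the 4 intervals of Ppp1r15a all include 0.

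On the deposited scale, rescued and unrescued si-Rsl24d1 cells differed most in Nupr1 and Ddit4 at day 0. Rescued cells had 107 TPM of Rsl24d1 and unrescued ones 35.7 TPM, a log2 difference of 1.55. Over the same libraries Ddit4 was lower by -0.66, Nupr1 higher by 0.72 and Chac1 higher by 0.49, with groups that did not overlap in any of them. Sesn2 differed by -0.37, Ppp1r15a by -0.34, Ddit3 by -0.33 and Pck2 by 0.27, again without overlap. Atf4 differed by 0.06, Trib3 by -0.07 and Atf5 by -0.11, where the median of all tested genes was -0.11. In all, the rescued libraries lay above the unrescued ones in 3 of the 10 genes and below them in 5, where 9.55% and 33.6% of tested genes did. With libraries scaled by median of ratios, which brings the median of all tested genes close to 0, the differences of Trib3 and Atf5 turned to 0.05 and 0.02. That shift bears on the other differences too, which are given before scaling, and so is their order. No gene of the 10 was called in this comparison, where 0.0304% of tested genes were higher and 0.249% lower (5 and 41 genes, or 12 and 12 after that scaling). An unadjusted p under 0.05 in limma was reached by 6 of the 10. The share of all tested genes that reached it is not given, so this count is no result about the 10. As the unrescued libraries belong to the comparison by which the genes were known, no p of single genes is given. The effect of the siRNA on Ddit4 with rescue differed by -0.53 from that without it, that on Chac1 differed by 0.56, on Nupr1 by 0.46, on Pck2 by 0.32, on Trib3 by 0.08 and on Atf4 by 0.07. On Ddit3 it differed by -0.47, from -0.11 without rescue to -0.58 with it. On Sesn2, Ppp1r15a and Atf5 it differed by -0.12, -0.11 and 0.02. In si-CTL cells at day 0, means without and with rescue moved alike for Sesn2 (5.74 and 5.49) and Ppp1r15a (4.94 and 4.71). They did so too for Nupr1 (4.09 and 4.35) and Ddit4 (6.18 and 6.05). Ddit3 (4.17 and 4.31), Chac1 (4.65 and 4.59) and Pck2 (4.19 and 4.14) moved the other way. No tested gene was called between these si-CTL cells, where the median of all tested genes was -0.12.

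Genes upstream and downstream of Atf4 were read from lists that leave the 10 genes out. The lists were written from general knowledge, with earlier results of these data known. Those that sense stress and those that carry out the first step held no called gene at day 0 with rescue. Of 8 tested eIF2 kinases and their regulators, 0 were differentially expressed (median log2 fold change -0.01, 2 at an unadjusted p under 0.05 in limma), and likewise 0 of 11 genes of eIF2, its exchange factor eIF2B and the phosphatase (median -0.09, 3 at an unadjusted p under 0.05). Among 12 bZIP partners of ATF4 and its ubiquitin ligase 1 was downregulated, the AP-1 repressor Jdp2 (-1.05, adjusted p = 7.2e-08). The targets in amino acid supply moved in the direction of Chac1 and Trib3, and 7 of 19 tested genes were downregulated, 0 were upregulated and 17 fell by the adjusted p alone, with a median of -0.71 where that of all tested genes was below 0.01. The largest falls were those of Mthfd2, encoding a mitochondrial folate enzyme of one-carbon metabolism (-1.16, adjusted p = 1.6e-08), and Gpt2, encoding an alanine aminotransferase (-1.08, adjusted p = 3.5e-09). The median of the 10 genes themselves was -0.67.

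Genes of the unfolded protein response under ATF6 and XBP1 went partly the other way. Of 15 tested, 12 had a positive value (median 0.15), and the 1 downregulated gene was Herpud1 (-0.96, adjusted p = 4.8e-07), a factor of protein degradation at the endoplasmic reticulum. Of 4 tested death genes downstream of CHOP 0 were differentially expressed (2 at an unadjusted p under 0.05 in limma). Ddit4 and Sesn2 also belong to other responses. Of 16 p53 targets, 7 were upregulated and 16 had a positive value (median 0.78), most of all Mdm2, which encodes the ligase that degrades p53 (1.62, adjusted p = 2.3e-13), and Btg2 (1.36, adjusted p = 2.5e-14). Of 15 hypoxia targets 1 was downregulated, Vegfa (-0.87, adjusted p = 4.1e-11), and none rose. Of 19 mTORC1 regulators 1 was upregulated, Ddit4l, the close relative of Ddit4 (1.47, adjusted p = 8.4e-10), and in the list of relatives of the 10 genes it was also the 1 called of 8. The p53 and mTORC1 values stand beside those of Ddit4, and their part in them was not tested.

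**Figure D3:**
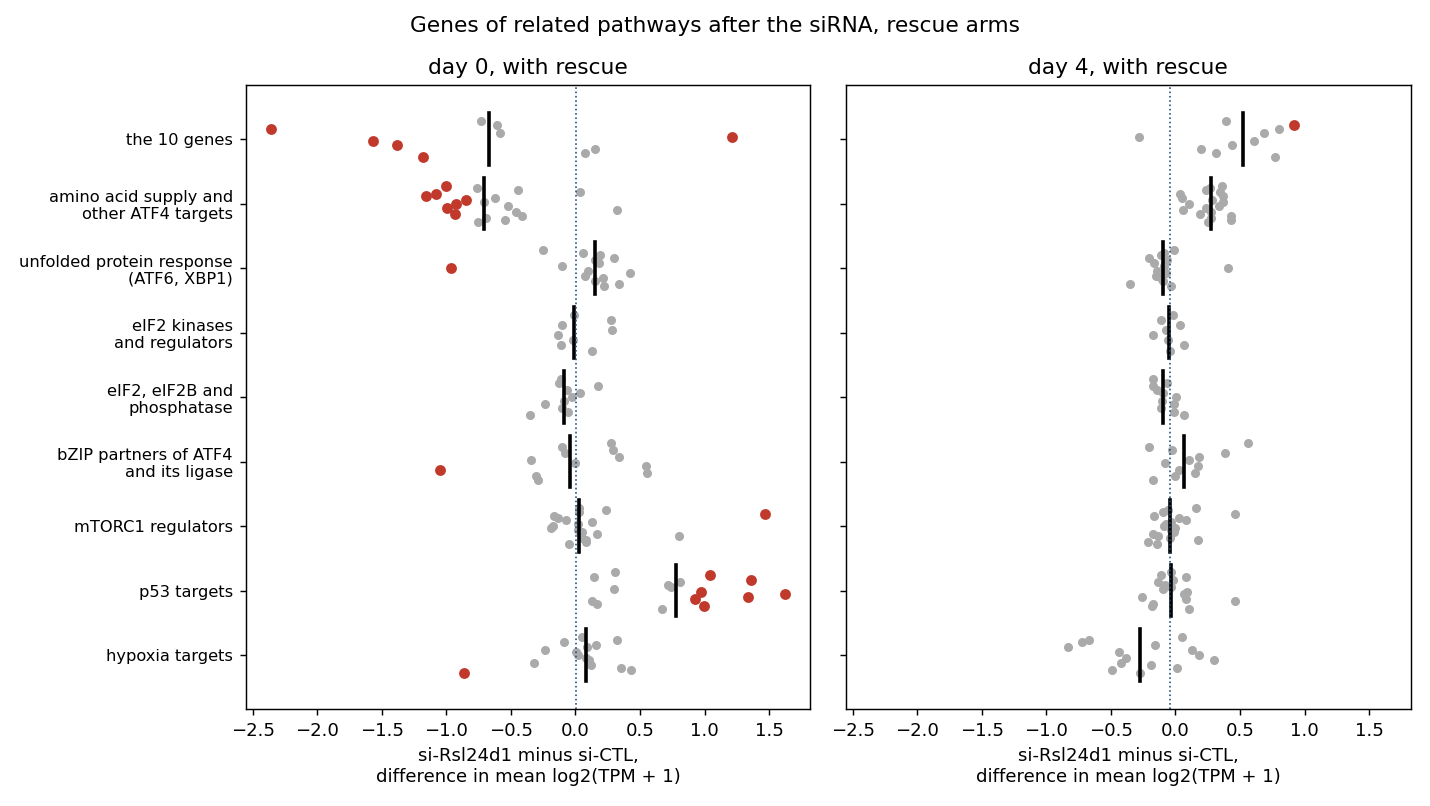
Difference in mean log2(TPM + 1) between si-Rsl24d1 and si-CTL cells with rescue at day 0 (left) and day 4 (right), 1 point per tested gene, red where called, black bar for the list median, dotted line for the median of all tested genes. At day 0 the 10 genes (median -0.67) and the ATF4 targets of amino acid supply (-0.71) lie to the left and the p53 targets (0.78) to the right, whereas at day 4 the medians are 0.52, 0.27 and -0.04.

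The element of the 4 promoters shown above was also counted in other genes. It was found in 8 of the 27 genes downregulated at day 0 with rescue that had a promoter in the table, and in 5 of the 150 upregulated ones, where 4.51% of all symbols with a promoter had it. The 8 hold all 4 of the downregulated ISR genes described here, Trib3, Chac1, Nupr1 and Pck2. The other 4 are Herpud1, Jdp2 and the amino acid genes Slc1a4 and Pycr1, which were named for the element after their values were seen. In the list of amino acid targets 6 of 18 genes with a promoter held it, in the p53 targets 0 of 13. The first list was written as targets of ATF4 and includes genes below the level required for testing, so its count describes the list.

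In control cells the mean levels were lower at day 4 than at day 0. Without rescue, the si-CTL libraries of day 4 lay under those of day 0 by -1.79 for Trib3 and Chac1, -1.18 for Sesn2, -1.09 for Ppp1r15a and -0.86 for Atf4, and by the rule 5 of the 10 genes were lower and 0 higher, against 8.24% and 6.77% of tested genes (1355 lower and 1114 higher, or 975 and 1391 after median of ratios scaling). All 3 day 4 libraries lay below the 3 day 0 libraries in 7 of the 10 genes, where 43.5% of tested genes did, and Atf5, Ddit3 and Pck2 overlapped. The day 0 libraries without rescue served the choice of the genes. The si-CTL cells with rescue did not, and can be tested, although their day 0 libraries are also the controls of the siRNA comparison with rescue. There Chac1 was at 4.62, 4.63 and 4.51 at day 0 and 3.22, 2.35 and 2.72 at day 4 (-1.82, standard error 0.19, adjusted p = 6.4e-08, limma), and Trib3 at 4.81, 4.73 and 4.67 against 3.40, 2.67 and 2.92 (-1.74, adjusted p = 2.4e-08). Atf4 was at 6.72, 6.33 and 6.41 at day 4 (-0.94, adjusted p = 3.8e-08), 89.3 against 172 TPM. Nupr1 fell by 1.10 (adjusted p = 1.8e-07) and Ppp1r15a by 1.10 (adjusted p = 1.1e-04). In all 10 genes the 3 day 4 libraries were below the 3 day 0 libraries, which was so for 27.7% of tested genes. By the rule 5 of the 10 were downregulated and 0 upregulated, against 4.82% of tested genes lower and 10.7% higher (792 and 1767 genes, or 1072 and 1364 after that scaling). Sesn2 (-0.84, adjusted p = 2.3e-08) missed the fold limit narrowly, and Ddit4 (-0.23), Pck2 (-0.33), Atf5 (-0.53) and Ddit3 (-0.53) had the smallest changes, all relative to a median of 0.12 over all tested genes.

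In si-Rsl24d1 cells, where day 0 started from other levels, the same step had different signs for different genes. With rescue, Chac1 rose from 2.18, 2.40 and 2.12 to 3.74, 3.62 and 3.34 (1.33, standard error 0.19, adjusted p = 4.4e-06, limma). Pck2 rose from 2.72, 2.75 and 2.80 to 4.19, 4.30 and 4.25 (1.49, adjusted p = 2.7e-10), Nupr1 by 1.08 (adjusted p = 2.6e-07) and Atf5 by 1.00 (adjusted p = 9.4e-06). Ddit4 fell from 7.27, 7.23 and 7.28 to 5.54, 5.52 and 5.55, which is -1.72 (standard error 0.06, adjusted p = 8.0e-15), and Ppp1r15a changed by -1.05 (adjusted p = 1.9e-04). The 4 rising genes and the 2 falling genes stand against 9.34% of tested genes higher and 5.57% lower. Ddit3 (0.74, adjusted p = 3.9e-05) and Sesn2 (-0.60, adjusted p = 2.5e-06) passed the adjusted p alone. Atf4 (0.18, 95% interval -0.02 to 0.38) and Trib3 (0.21, 95% interval -0.14 to 0.57) did not pass. The change of Ppp1r15a differed from that in si-CTL cells by 0.05 (95% interval -0.57 to 0.67). Without rescue 3 of the 10 were higher and 3 lower, against 7.93% and 6.22% of tested genes, with Nupr1 at 1.54, Pck2 at 1.26, Chac1 at 1.24, Ddit4 at -2.07, Sesn2 at -1.09 and Ppp1r15a at -1.07.

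At day 4 the differences seen at day 0 were not found. Without rescue, 0 of the 10 genes were differentially expressed (2 at an unadjusted p under 0.05 in limma), against 1.45% of tested genes higher and 0.182% lower. These were 238 and 30 genes, and 118 and 48 with libraries scaled by median of ratios, under which 0 of the 10 genes were called too. Atf4 was at 6.49, 6.86 and 6.38 in si-CTL and 6.84, 6.65 and 6.86 in si-Rsl24d1 libraries (0.20, 95% interval 0.00 to 0.41, adjusted p = 0.087). Chac1 was at 2.69, 3.37 and 2.52 against 2.99, 2.81 and 3.14 (0.12, 95% interval -0.28 to 0.52) and Ddit4 at 5.90, 5.76 and 6.02 against 5.89, 5.87 and 5.78 (-0.04, 95% interval -0.17 to 0.09). The groups of 9 of the 10 genes overlapped, and 37.1% of all tested genes had separate groups with si-Rsl24d1 above. Sesn2, with 4.51, 4.69 and 4.50 against 4.70, 4.88 and 4.97, was the exception (0.29, adjusted p = 8.4e-03). The median of all tested genes was 0.13 in this comparison, and collagen genes of the fibroblast list were higher in si-Rsl24d1 cells, Col3a1 by 2.05 (adjusted p = 3.4e-07) and Col1a1 by 1.45 (adjusted p = 5.4e-07), whose part in these values was not tested.

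**Figure D4:**
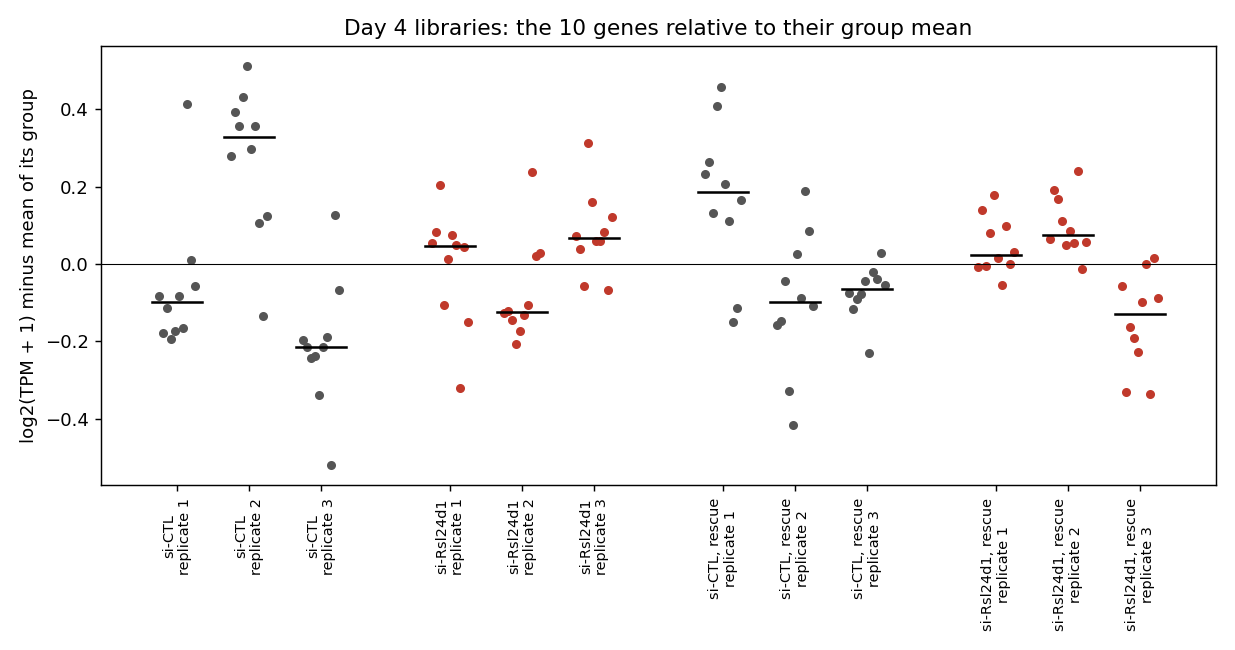
Deviation of each of the 10 genes from the mean of its group, in log2(TPM + 1), in the 12 libraries of day 4, 1 point per gene, black bars for the median over the 10 genes, grey for si-CTL, red for si-Rsl24d1. Replicate 2 of si-CTL without rescue (median 0.33) and replicate 1 of si-CTL with rescue (0.18) stand above the other libraries of their groups, and replicate 3 of si-CTL without rescue (-0.21) stands lowest of the 12.

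The control libraries of day 4 were uneven for these genes. In replicate 2 of si-CTL without rescue, 9 of the 10 genes were above the mean of their group, with a median deviation of 0.33. In replicate 3 of the same group 9 of the 10 genes were below the mean, with a median of -0.21. In replicate 1 of si-CTL with rescue 8 of 10 were above the mean, with a median of 0.18. At day 0 the median deviations lay between -0.073 and 0.058. In si-CTL cells the SD of Chac1 was 0.0087 without and 0.068 with rescue at day 0, and 0.45 and 0.44 at day 4. The fit uses 1 spread per gene over the 8 groups. For genes that vary more at day 4, intervals and p-values that rest on these libraries can be too small. Chac1 (0.51 and 0.46) and Trib3 (0.43 and 0.41) deviated most in the 2 high libraries, whereas Ddit4 was below its group mean in both. Without replicate 2 of si-CTL without rescue, Atf4 was 0.34 higher in si-Rsl24d1 cells without rescue (adjusted p = 3.5e-03, limma). Libraries were not scaled in that fit, and the median of all tested genes was 0.13 with every library kept. Still 0 of the 10 genes passed both limits.

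With rescue, 8 of the 10 genes had the opposite sign at day 4 from day 0, whereas Ppp1r15a (0.15 and 0.20) and Sesn2 (0.07 and 0.32) were positive on both days. Atf5 was upregulated, at 3.24, 2.83 and 2.86 in si-CTL and 4.04, 4.09 and 3.57 in si-Rsl24d1 libraries (0.92, standard error 0.15, adjusted p = 4.5e-04, limma). It was the 1 gene of 10 called, against 0.693% of tested genes higher and 0.0365% lower. Chac1 (0.80, adjusted p = 8.9e-03), Trib3 (0.77, adjusted p = 5.2e-03), Ddit3 (0.69, adjusted p = 1.2e-03) and Nupr1 (0.61, adjusted p = 3.0e-03) passed the adjusted p but not the fold limit. Ddit4, at 5.71, 5.91 and 5.85 against 5.54, 5.52 and 5.55, was the only one to fall (-0.28, adjusted p = 5.2e-03). In 8 of the 10 genes the si-Rsl24d1 libraries lay above all si-CTL libraries, and in Ddit4 below, where 10.8% and 24.8% of tested genes did. These calls were fragile. Fitted on the 6 libraries alone, Atf5 had an adjusted p of 0.021 and 0 genes were called. Leaving out replicate 1 of si-CTL or replicate 3 of si-Rsl24d1 gave 3 called genes, and leaving out replicate 2 of either group gave 0. Rsl24d1 was at 131 against 118 TPM in these cells, and Col3a1 was 1.04 higher (adjusted p = 1.7e-03), whose part was not tested.

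The change of the siRNA effect between the days was tested itself, as the effect at day 4 minus that at day 0 with rescue. It was called in 8 of the 10 genes, 7 with a higher and 1 with a lower value, against 0.626% and 1.48% of tested genes. Its day 0 part repeats the siRNA effect for which the genes were known, so this count is not independent of their choice. At day 4 alone, only Atf5 of the 10 genes was called. Chac1 changed most (3.16, standard error 0.27, adjusted p = 9.6e-08, limma), from -2.36 at day 0 to 0.80 at day 4. Nupr1 (2.18, adjusted p = 5.1e-08), Trib3 (1.95, adjusted p = 9.1e-06) and Pck2 (1.82, adjusted p = 7.1e-08) followed. The bZIP factors Atf5 (1.53, adjusted p = 4.2e-05), Ddit3 (1.27, adjusted p = 4.4e-05) and Atf4 (1.12, adjusted p = 6.9e-06) changed in the same direction. Ddit4 changed by -1.49 (standard error 0.09, adjusted p = 5.9e-10). Sesn2 (0.24, 95% interval 0.00 to 0.49) and Ppp1r15a did not pass. The count was 8 with any 1 of the 12 libraries left out. Without rescue, where the day 0 libraries had served the choice, 6 were higher and 1 lower, against 2.9% and 2.71% of tested genes (477 and 445, or 281 and 576 after median of ratios scaling), with Chac1 at 3.03, Nupr1 at 2.25, Pck2 at 1.63, Trib3 at 1.51, Atf4 at 1.00, Atf5 at 0.93 and Ddit4 at -1.78.

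Related lists moved between the days with rescue too. Of the 19 amino acid targets 13 had a higher siRNA effect at day 4 than at day 0 and 0 a lower one (median 1.01, against -0.05 for all tested genes), most of all Mthfd2 (1.53, adjusted p = 9.6e-08) and Aldh18a1, an enzyme of proline synthesis (1.36, adjusted p = 8.2e-07). At day 4 alone, 0 of these 19 were called (13 at an unadjusted p under 0.05 in limma), with 19 positive values and a median of 0.27. Of the 16 p53 targets 8 had a lower effect at day 4 and 0 a higher one (median -0.83), with Perp at -1.59 (adjusted p = 8.3e-11) and Mdm2 at -1.55 (adjusted p = 1.7e-10). Herpud1 (1.37, adjusted p = 8.5e-07) and Jdp2 (1.07, adjusted p = 9.2e-06) moved with the ISR genes and Ddit4l (-1.01, adjusted p = 2.2e-05) with Ddit4. Sesn3, a relative of Sesn2, also had a lower effect at day 4 (-0.94, adjusted p = 1.5e-04), as did 3 of 15 hypoxia targets, led by Ankrd37 (-0.99, adjusted p = 4.1e-03) and Slc2a1 (-0.93, adjusted p = 1.6e-05). Of the 5 fibroblast genes 2 had a higher effect at day 4, Col3a1 (1.18, adjusted p = 5.8e-03) and Col1a1 (1.01, adjusted p = 2.1e-03), with 5 positive values, and their part in the values of the ISR genes was not tested. No eIF2 kinase or regulator was called (0 of 8, 2 at an unadjusted p under 0.05 in limma). In si-CTL cells with rescue 8 of the 19 amino acid targets were lower at day 4 than at day 0, led by Cth, an enzyme of cysteine synthesis (-1.77, adjusted p = 1.1e-14), and the secreted factor Stc2 (-1.74, adjusted p = 6.7e-11). Another 2 were higher, Asns, encoding asparagine synthetase (1.24, adjusted p = 4.6e-12), and Pycr1, of proline synthesis (0.88, adjusted p = 6.7e-09), so the list did not move in 1 direction with the day.

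Over the 24 libraries the genes with the pattern most like that of Atf4, apart from the 10 genes, were Yars (Pearson r = 0.96), Herpud1, Mthfd2, Ubap1l and Hrk. For Chac1 they were Nars (r = 0.98), Mthfd2, Herpud1, Zfp42 and its pseudogene Zfp42-ps1. Yars and Nars encode the tRNA synthetases of tyrosine and asparagine, and Zfp42 is a marker of pluripotent cells. For Ddit4 they were Alox5 and Ltb4r2 (both r = 0.99), Man2b1, Perp and Trp53i11. Alox5 (mean 0.98 on the log2(TPM + 1) scale), Ltb4r2 (1.35) and Hrk (0.65) had low levels. The lists of Atf4 and Chac1 share 2 of their 5 genes, and neither shares a gene with that of Ddit4. These are descriptions over 8 group levels with 3 libraries each, in which the groups carry most of the variation.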

How the data were processed

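The 24 RNA-seq libraries form 8 groups of 3, read from the sample titles. Per the study's methods Salmon gave transcript abundances, and the authors deposited gene values as log2(TPM + 1). The submitters' processing notes name STAR 2.7.8a, Salmon 1.4.0 and GRCh38, a human build, whereas the study's methods name other versions and a mouse annotation. The kit selects poly-A RNA by the labels and not by the methods, which bears on transcripts without a tail, and the labels hold both 48 h and 72 h for the time after transfection. Which holds was not settled here. Raising 2 to the deposited values and removing 1 gave TPM, which sum to 1000000 in every library.

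Symbols that averaged 0.5 or more on this scale, 16447 of 54242, were fitted with limma 3.58.1 in R 4.3.3, with 8 group means, a shared spread and an intensity trend, two-sided, Benjamini-Hochberg adjusted within each comparison. Called genes had an adjusted p under 0.01 and a change over 1.8-fold on this scale, which understates ratios of low genes. Intervals are unadjusted. The fit was tested on simulated data. Exact permutation of 3 against 3 reaches p = 0.1 at best and was not used. The 10 genes, the lists and the tests were chosen with earlier results of these data known. Named beside the 10 genes are Rsl24d1, at most 2 called genes per list, comparison and direction, and the 5 genes most correlated with Atf4, Chac1 and Ddit4. The pluripotency genes and Thy1 are named for their levels as well. Samples sharing a replicate number did not deviate together (mean correlation -0.02 over 84 pairs, -0.22 to 0.17), so numbers were not used as a block. No pair of libraries was identical. Alternatives were 0.1 or 2 added to the TPM, no filter (35764 symbols above 0) or a mean of 1.5, only the groups compared, a replicate block, median of ratios scaling, no fold limit, and leaving out each library. Figures were drawn with matplotlib 3.10.9.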

Additional observations from a re-analysis of the deposited data

Results flagged for a closer look

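The effect of the siRNA with rescue differed between day 4 and day 0, by the test of that difference in limma, in 8 of the 10 genes, with values on the log2 scale at day 4 minus day 0. It differed by 3.16 for Chac1, 2.18 for Nupr1, 1.95 for Trib3 and 1.82 for Pck2. It differed by 1.53 for Atf5, 1.27 for Ddit3 and 1.12 for Atf4. For Ddit4 it differed by -1.49. The day 0 part of these differences repeats the siRNA effect for which the genes were known. Rsl24d1 itself differed by 0.65 in the same test (adjusted p = 9.8e-05) and was not lower in si-Rsl24d1 than in si-CTL cells at day 4. Time since transfection, RA and medium differ between the days, and their parts cannot be told apart.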

How the results depend on the processing

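At day 0 with rescue 5 genes of 10 were called under every alternative run that kept the fold limit, and the day difference with rescue kept a count of 8 under every one. The samples share only replicate numbers. With a replicate block the counts were unchanged in every comparison, 5 at day 0 with rescue, 1 at day 4 with rescue and 8 for the day difference with rescue, and the adjusted p of Chac1 at day 4 with rescue became 0.011. Without the fold limit, 8 genes passed at day 0 with rescue, 1 at day 4 without rescue and 6 at day 4 with rescue. In rescued against unrescued si-Rsl24d1 cells 3 passed at day 0 and 2 at day 4. For day 4 against day 0 in si-CTL cells 8 passed without and 9 with rescue, and 1, Ddit4, passed for the siRNA effect by rescue. More of all tested genes pass without that limit too. Their share is not given here, so these counts are no result about the 10 genes. With 0.1 added to the TPM, 2 genes passed at day 4 with rescue and 1 for rescued against unrescued cells, and with 2 added, or only the groups compared, 0 passed at day 4 with rescue.

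With each library left out, counts were 0 to 3 at day 4 with rescue, and 3 to 6 for si-CTL without rescue by day, 3 without replicate 3 of day 4. Signs turned only for small values. Under median of ratios scaling Chac1 at day 4 without rescue was at -0.027, Atf5 and Trib3 in rescued against unrescued cells at 0.015 and 0.052, and the day difference without rescue at -0.12 for Ppp1r15a and -0.055 for Sesn2. With libraries left out, at day 4 without rescue Chac1 ranged from -0.050 to 0.38, Pck2 from -0.17 to 0.11 and Ddit4 from -0.11 to 0.019, and the day difference of Ppp1r15a from -0.24 to 0.23 without and -0.094 to 0.22 with rescue. Of the other values of single genes, 1461 kept sign and side of the adjusted p limit, 74 lost and 16 gained it. The cause was not tested. The median of all genes lay over 0.1 from 0 in 6 comparisons, by up to 0.14, and scaling brought it close to 0. Over all tested genes, scaling took the higher and lower calls at day 4 without rescue from 238 and 30 to 118 and 48. Depth is unknown, and 3 libraries per group set the precision.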
